A study of Mus musculus with 11 samples.

Results

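The B-lineage transcription factors described here are 9 genes, Ebf1, Pax5, Tcf3, Ikzf1, Ikzf3, Foxo1, Pou2af1, Bach2 and Lef1. They were chosen by name as regulators of early B-cell development, and all 9 were found by Ensembl identifier among the 55487 genes of the table. RNA was measured by bulk sequencing in 11 libraries of acute myeloid leukaemia (AML) from mice. Every mouse had Flt3-ITD, a mutant Flt3 cytokine receptor kept active by a duplicated segment, and NHD13, a NUP98-HOXD13 fusion transgene. The label of 6 libraries was Ifnar1 +/- and that of the other 5 was Ifnar1 -/-, Ifnar1 being a subunit of the type I interferon receptor. No library with intact Ifnar1 was analysed here, and the labels give no age, sex, treatment or sorting scheme. Libraries are named by genotype and number, and a shared number does not mean a shared mouse. Levels are given in CPM over library sizes adjusted by TMM factors, so they are not shares of the raw totals. The comparison asks how the factors varied between leukaemias and whether they differed by Ifnar1 genotype.

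B-cell identity is built in steps. The E protein encoded by Tcf3 (E2A) and the forkhead factor Foxo1 act upstream of Ebf1, Ebf1 activates Pax5, and Pax5 holds the B-cell programme in place while it represses genes of other lineages. Ikzf1 (Ikaros) and Ikzf3 (Aiolos) are zinc finger proteins of lymphoid cells, Pou2af1 (OBF-1) is a coactivator of octamer-binding factors, Bach2 is a transcriptional repressor in B cells, and Lef1 is a nuclear partner of beta-catenin found in pro-B cells and T cells. Cd79a, the signalling chain of the B-cell receptor and a target of Ebf1 and Pax5, serves here as the marker of B-lineage RNA. On GRCm38, Ebf1 (ENSMUSG00000057098) spans chr11:44617317-45008091 on the plus strand and Pax5 (ENSMUSG00000014030) chr4:44524757-44710487 on the minus strand. Pou2af1 (ENSMUSG00000032053) spans chr9:51213708-51240080 on the plus strand and Ikzf3 (ENSMUSG00000018168) chr11:98464902-98546031 on the minus strand.

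Ebf1, Pax5, Pou2af1 and Cd79a had the most contrasting levels, and the start regions of these 4 genes are shown because E proteins such as Tcf3 bind E-boxes. Each sequence is 300 bases long, from 250 before to 50 after a RefSeq transcription start on GRCm38.p6, and capitals mark every E-box (CANNTG, which reads the same on both strands).
Ebf1 upstream start, chr11:44617850-44618149, plus strand: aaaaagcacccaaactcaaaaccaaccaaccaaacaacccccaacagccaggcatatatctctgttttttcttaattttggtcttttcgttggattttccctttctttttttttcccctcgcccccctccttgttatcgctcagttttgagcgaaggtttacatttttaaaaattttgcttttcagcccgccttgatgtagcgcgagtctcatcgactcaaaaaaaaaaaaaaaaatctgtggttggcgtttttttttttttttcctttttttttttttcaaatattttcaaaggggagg
Ebf1 downstream start, chr11:44619978-44620277, plus strand: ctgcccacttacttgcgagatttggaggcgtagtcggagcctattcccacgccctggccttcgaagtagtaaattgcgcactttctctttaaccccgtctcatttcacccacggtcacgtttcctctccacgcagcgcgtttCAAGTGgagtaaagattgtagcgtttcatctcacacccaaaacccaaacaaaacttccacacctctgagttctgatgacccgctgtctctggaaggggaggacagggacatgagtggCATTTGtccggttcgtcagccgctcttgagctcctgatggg
Pax5, chr4:44710645-44710944, minus strand: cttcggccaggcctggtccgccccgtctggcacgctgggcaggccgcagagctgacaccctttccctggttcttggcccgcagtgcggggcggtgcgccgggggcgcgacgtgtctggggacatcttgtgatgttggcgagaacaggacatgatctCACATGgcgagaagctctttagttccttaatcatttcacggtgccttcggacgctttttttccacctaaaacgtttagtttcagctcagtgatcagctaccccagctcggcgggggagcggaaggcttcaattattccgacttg
Pou2af1, chr9:51213440-51213739, plus strand: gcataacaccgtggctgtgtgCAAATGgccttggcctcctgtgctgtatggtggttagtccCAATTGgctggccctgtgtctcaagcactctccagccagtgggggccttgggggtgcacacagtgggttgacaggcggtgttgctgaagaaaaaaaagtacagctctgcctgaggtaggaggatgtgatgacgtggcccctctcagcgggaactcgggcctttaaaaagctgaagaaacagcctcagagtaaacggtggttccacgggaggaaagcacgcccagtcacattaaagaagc
Cd79a, chr7:24897247-24897546, plus strand: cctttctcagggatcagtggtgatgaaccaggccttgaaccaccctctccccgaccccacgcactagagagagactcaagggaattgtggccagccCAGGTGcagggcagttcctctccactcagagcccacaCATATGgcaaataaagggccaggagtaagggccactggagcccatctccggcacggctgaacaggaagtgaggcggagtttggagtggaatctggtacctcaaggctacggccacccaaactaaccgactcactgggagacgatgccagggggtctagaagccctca
The downstream Ebf1 start, Pou2af1 and Cd79a held 2 E-boxes each, Pax5 held 1 and the upstream Ebf1 start held 0. An E-box was present in 72.3% of 32851 mouse promoter windows of the same length, so its presence does not mark these genes. The EBF motif CCCNNGGG, searched on both strands, was in 13.7% of windows and in none of the 5 shown. The octamer ATGCAAAT was in 1.74% of windows and was also absent from the 5 shown. A match is a match of letters and not a measured binding site, and no match says nothing about a factor. Start regions were matched for 8 of the 9 factors, and Ikzf3 was not among them. The end of the window was found near an annotated transcript start for the upstream Ebf1 start, Pou2af1 and Cd79a. It was not found for Pax5 or the downstream Ebf1 start, and the Pax5 window lies wholly outside the Pax5 span given above.

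Ebf1, the pioneer factor of the B lineage, was either abundant or close to absent. In the Ifnar1 +/- libraries 1 to 6 its level was 1.37, 8.72, 745, 645, 646 and 0.390 CPM. In the Ifnar1 -/- libraries 1 to 5 it was 0.0309, 0.0516, 656, 0.0369 and 531 CPM. Libraries 3, 4 and 5 of the Ifnar1 +/- genotype and libraries 3 and 5 of the Ifnar1 -/- genotype were high, no library lay between 8.72 and 531 CPM, and the genotypes overlapped. In the 3 low Ifnar1 -/- libraries the level rested on 1 count each, under a floor of 3 counts, which corresponds to 0.0724 to 0.155 CPM depending on the library.

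Pax5, which commits cells to the B lineage, separated the same libraries. It was at 0.201, 1.07, 174, 187, 202 and 0.0974 CPM in Ifnar1 +/- libraries 1 to 6. It was at 0.0618, 0.0516, 106, 0 and 147 CPM in Ifnar1 -/- libraries 1 to 5. No library lay between 1.07 and 106 CPM, and each genotype contained both high and low libraries.

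The coactivator gene Pou2af1 was at 1.13, 5.28, 464, 327, 441 and 0.325 CPM in Ifnar1 +/- libraries 1 to 6. Its Ifnar1 -/- levels were 4.11, 0.206, 348, 2.10 and 271 CPM in libraries 1 to 5. The high libraries were again the same 5, but Ifnar1 -/- libraries 1 and 4 kept a few CPM of Pou2af1 where Ebf1 and Pax5 were at or under the floor.

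Cd79a itself was at 2.86, 33.6, 2951, 2610.01, 3052 and 1.23 CPM in the Ifnar1 +/- libraries by number. In Ifnar1 -/- libraries 1 to 5 it was at 0.401, 11.5, 1995, 0.442 and 2687 CPM. The largest gap in Cd79a lay between 33.6 and 1995 CPM and left 5 libraries above it, called the Cd79a-high libraries below. These 5 were picked by a measured level, so they are described and not tested against the other 6. In bulk RNA, fewer cells of a type and less RNA per cell cannot be told apart, and this holds for every level given here.

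**Figure D1:**
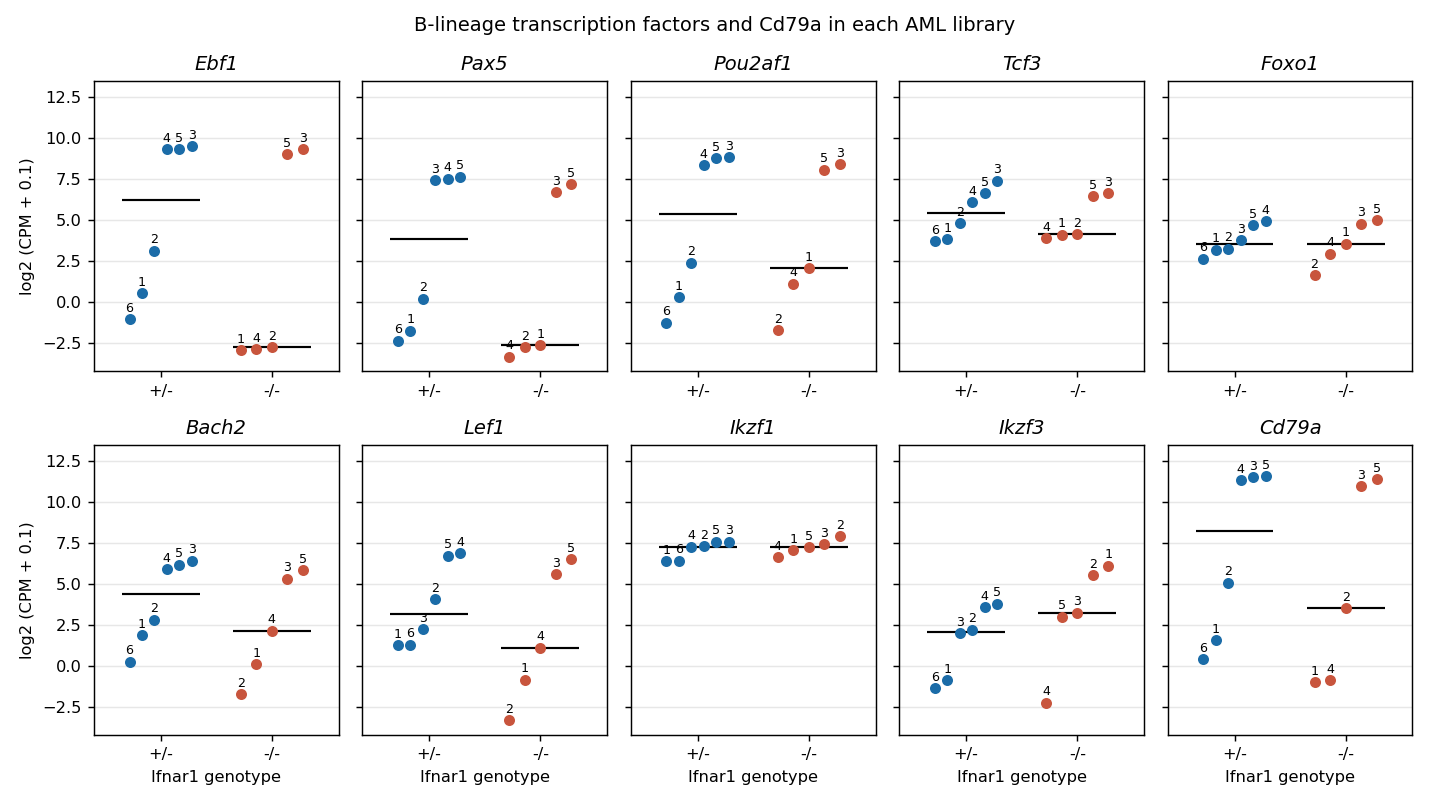
Level of each of the 9 factors and of Cd79a, as log2 of CPM plus 0.1, by Ifnar1 genotype; each point is 1 library with its number and the line is the median of the genotype. Ebf1, Pax5 and Pou2af1 split each genotype into libraries above 100 CPM and libraries below 10 CPM, whereas Ikzf1 stayed between 83.6 and 241 CPM.

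The E protein gene Tcf3 was present in every library at graded levels. It was at 14.4, 28.4, 170.4, 68.6, 99.6 and 13.3 CPM in Ifnar1 +/- libraries 1 to 6. It was at 17.2, 18.0, 102, 15.1 and 89.7 CPM in Ifnar1 -/- libraries 1 to 5. The Cd79a-high libraries held the 5 highest values, and the highest library exceeded the lowest 12.8-fold.

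Foxo1, a forkhead factor needed for early B-cell genes, was low throughout. Its Ifnar1 +/- levels were 9.19, 9.56, 13.9, 30.8, 25.9 and 6.27 CPM. Its Ifnar1 -/- levels were 11.9, 3.04, 27.8, 7.67 and 32.2 CPM. The 5 highest values were in the Cd79a-high libraries, although Ifnar1 +/- library 3, at 13.9 CPM, was close to Ifnar1 -/- library 1 at 11.9 CPM.

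Bach2, a repressor that restrains plasma cell differentiation, was at 3.59, 7.02, 85.5, 60.5, 72.0 and 1.10 CPM in the Ifnar1 +/- libraries. It was at 0.988, 0.206, 39.8, 4.35 and 57.9 CPM in the Ifnar1 -/- libraries. The gap between Cd79a-high and other libraries ran from 7.02 to 39.8 CPM.

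Lef1 did not follow Cd79a in full. It was at 2.34, 16.7, 4.65, 117, 106 and 2.34 CPM in Ifnar1 +/- libraries 1 to 6 and at 0.463, 0, 48.2, 2.06 and 91.2 CPM in Ifnar1 -/- libraries 1 to 5. The library with the highest Ebf1 of all 11, Ifnar1 +/- library 3, had only 4.65 CPM of Lef1, less than library 2 of the same genotype.

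Ikzf1 was expressed in all 11 libraries within a narrow range. It was at 83.6, 156, 193, 154, 190.3 and 85.6 CPM in the Ifnar1 +/- libraries and at 132, 241, 171, 99.8 and 150.5 CPM in the Ifnar1 -/- libraries. The highest value was in Ifnar1 -/- library 2, in which Ebf1 rested on 1 count. That rank depends on the TMM factor and does not hold as a share of the raw total. The library had 4672 Ikzf1 counts of 28492942, against 5354 of 25684531 in Ifnar1 +/- library 3. The highest library exceeded the lowest 2.88-fold.

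Ikzf3 had its highest levels in libraries with almost no Ebf1 or Pax5. It was at 0.443, 4.55, 3.85, 11.9, 13.9 and 0.292 CPM in Ifnar1 +/- libraries 1 to 6. It was at 69.5, 46.4, 9.42, 0.111 and 7.90 CPM in Ifnar1 -/- libraries 1 to 5. Ifnar1 -/- libraries 1 and 2 stood above every other library, while library 4 of the same genotype was the lowest of all 11.

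The members thus differed among themselves in how far they varied. The SD of log2 CPM over the 11 libraries was 5.79 for Ebf1, 5.15 for Pax5, 4.40 for Pou2af1, 3.48 for Lef1, 2.92 for Bach2 and 2.80 for Ikzf3. It was 1.40 for Tcf3, 1.09 for Foxo1 and 0.50 for Ikzf1, against a median of 0.67 over the 14521 genes tested. For 6 of the 9 factors the 5 highest values fell in the 5 Cd79a-high libraries, namely Ebf1, Pax5, Tcf3, Foxo1, Pou2af1 and Bach2. The same held for 12.1% of all genes tested, and the reverse (5 lowest values there) for 1307 of 14521. This is a description, since the factors were chosen as regulators of the lineage that Cd79a marks.

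**Figure D2:**
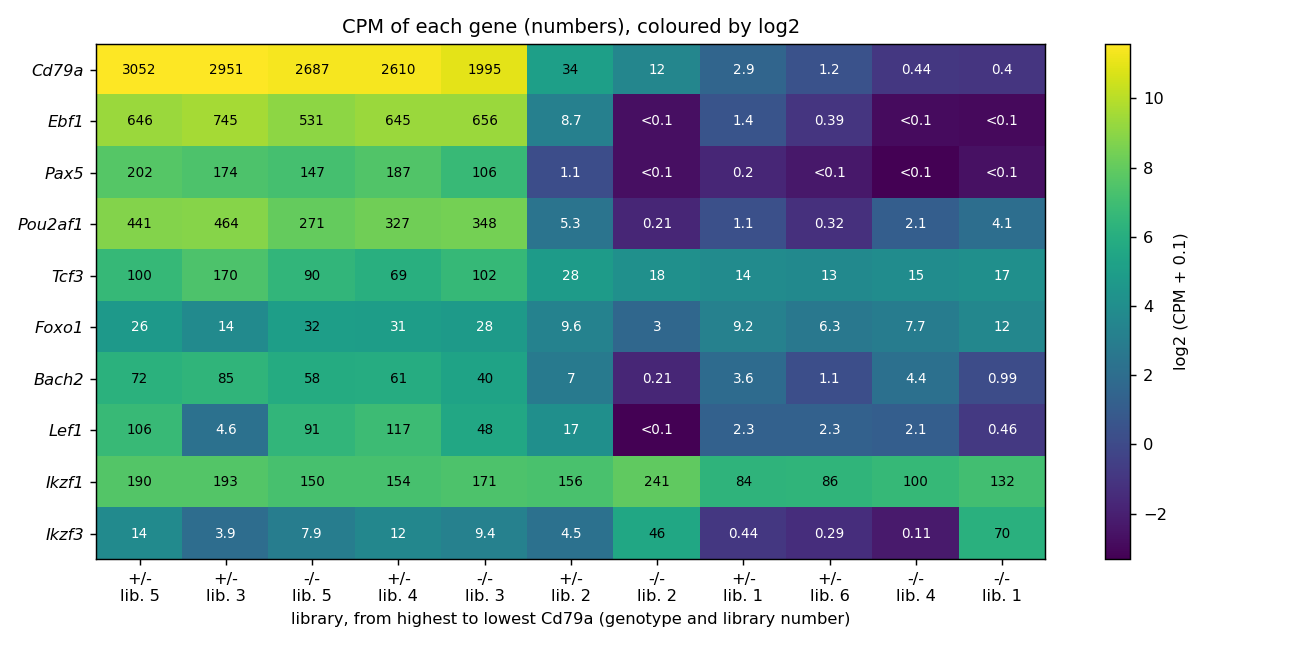
CPM of Cd79a and the 9 factors (numbers) in the 11 libraries, ordered from highest to lowest Cd79a and coloured by log2 of CPM plus 0.1. The 5 libraries on the left hold the highest Ebf1, Pax5, Pou2af1, Tcf3, Foxo1 and Bach2, Ikzf1 is high across the row, and Ikzf3 peaks in Ifnar1 -/- libraries 1 and 2.

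Divided by exon length, the order of the factors differed between libraries. In the 5 Cd79a-high libraries Pou2af1 was first, at 106 to 182 CPM per kb, Ebf1 was second, at 54.4 to 76.4 CPM per kb, and Ikzf3 was last. In the other 6 libraries Ikzf1 was first, at 14.5 to 41.7 CPM per kb. Tcf3 was second in 4 of those 6, and Ikzf3 was second in Ifnar1 -/- libraries 1 and 2, at 7.94 and 5.30 CPM per kb. The 9 factors summed to between 1378 and 1854 CPM in the Cd79a-high libraries and to between 109.7 and 309 CPM in the others.

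Relative to Cd79a, Ebf1, Pax5, Pou2af1, Bach2 and Ikzf1 varied less than Foxo1, Tcf3, Ikzf3 and Lef1 over the 5 Cd79a-high libraries. Ebf1 was at 25.3%, 24.7% and 21.2% of the Cd79a CPM in Ifnar1 +/- libraries 3, 4 and 5. It was at 32.9% and 19.7% in Ifnar1 -/- libraries 3 and 5. In Ifnar1 +/- library 2, with 1006 Cd79a counts, it was at 25.9%, inside that range. Pax5 was at 5.32% to 7.16% in the Cd79a-high libraries and at 3.18% in Ifnar1 +/- library 2. Pou2af1 was at 10.1% to 17.5% in the Cd79a-high libraries and at 15.7% in Ifnar1 +/- library 2. Over the same 5 libraries Bach2 was at 1.99% to 2.90%, Tcf3 at 2.63% to 5.77% and Foxo1 at 0.471% to 1.39% of Cd79a. In Ifnar1 +/- library 2 these 3 lay above those ranges, at 20.9%, 84.5% and 28.4%. Ikzf1 was at 5.60% to 8.57% in the 5 libraries, although it was also abundant where Cd79a was low. A steady ratio within these 5 libraries therefore does not mark the factors that follow Cd79a.

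The other 2 libraries with at least 50 Cd79a counts lay outside the Ebf1 range, one above and one below. Ifnar1 +/- library 1 had 34 Ebf1 counts beside 71 Cd79a counts, or 47.9%. Ifnar1 -/- library 2 had 1 Ebf1 count, 1 Pax5 count and 4 Pou2af1 counts beside 223 Cd79a counts, so Ebf1 was at 0.448% of Cd79a. Lef1 was at 0.157% of Cd79a in Ifnar1 +/- library 3, at 2.41% to 4.49% in the other 4 Cd79a-high libraries and at 49.8% in Ifnar1 +/- library 2.

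**Figure D3:**
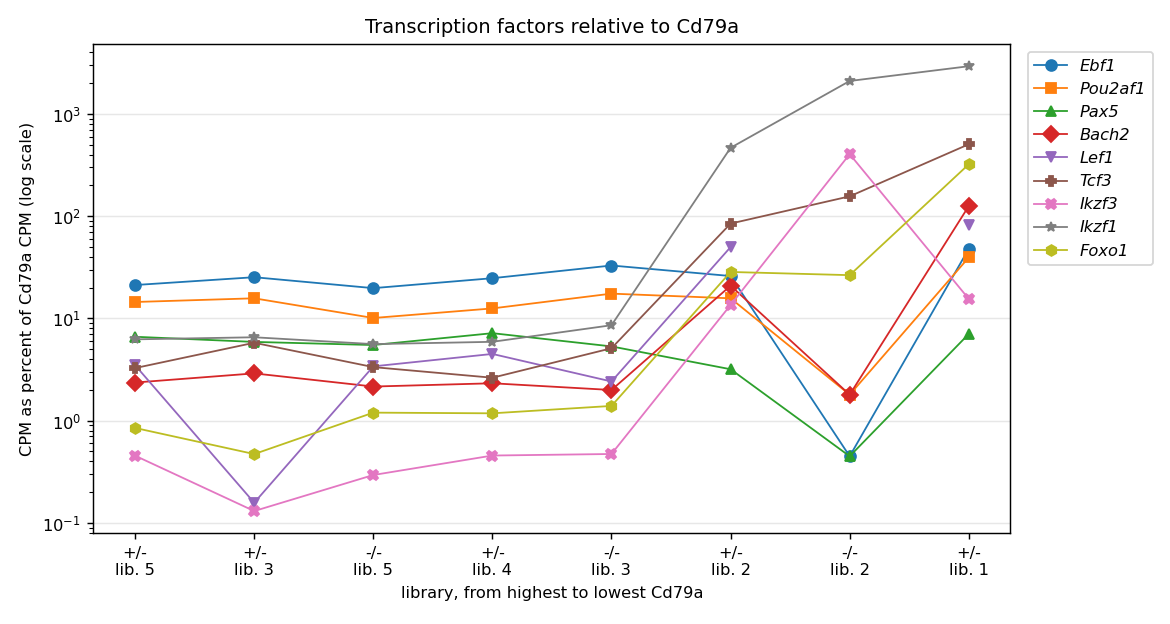
CPM of the 9 factors as a percentage of Cd79a CPM (log scale) in the 8 libraries with at least 50 Cd79a counts, ordered from highest to lowest Cd79a; Lef1 in Ifnar1 -/- library 2 is not drawn because its count was 0. Ebf1 stays between 19.7% and 32.9% in the first 6 libraries, whereas Ikzf1, Tcf3, Foxo1 and Ikzf3 rise as a percentage once Cd79a is low. Bach2 and Lef1 rise in Ifnar1 +/- libraries 1 and 2 but not in Ifnar1 -/- library 2.

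Genotype did not separate the factors. No factor of the 9 passed an adjusted p of 0.05 in edgeR's quasi-likelihood test, and 0 of the 14521 genes tested did, so 0% were called. At an unadjusted p under 0.05 the count was 0 of 9 factors in edgeR, in DESeq2 and in limma voom over all 11 libraries. Over all genes the share at that level in the main edgeR fit of 11 libraries was 0.771% lower and 1.22% higher in those labelled Ifnar1 -/-. With the replicate number as a block, Bach2 had an unadjusted p of 0.0276 in edgeR. No share over all genes was taken for that fit. The CPM ranges of the genotypes overlapped for all 9 factors, and they did not overlap for 0.124% of genes tested. Of the 9 fold changes 6 were below 0 and 3 above, with a median of -0.52 on the log2 scale against -0.01 over all genes tested. Over all genes tested 51.7% were below 0. Of the 9 factors, 6 had their 5 highest values in the Cd79a-high libraries, so the signs are not independent.

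Ebf1 averaged 341 ± 372 CPM (SD, n = 6) in the Ifnar1 +/- libraries. The Ifnar1 -/- mean was 237 ± 328 CPM (SD, n = 5). Its log2 fold change was -0.52 with an SE of 2.27 and a 95% interval from -5.53 to 4.48. Pax5 averaged 93.9 ± 103 CPM and 50.7 ± 70.9 CPM, a log2 fold change of -0.89 with an SE of 2.18. Pou2af1 averaged 206 ± 228 CPM and 125 ± 171 CPM, a log2 fold change of -0.72 with an SE of 1.90. These intervals span changes of many fold both ways, so a genotype difference was not detectable with these libraries and is not shown to be absent.

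Tcf3 averaged 65.8 ± 61.4 CPM and 48.4 ± 43.5 CPM, and its log2 fold change was -0.44 with an SE of 0.80; it turned to 0.11 without Ifnar1 +/- library 3. The log2 fold change of Bach2 was -0.89 with an SE of 1.38. That of Lef1 was -0.55 with an SE of 1.62, and it turned to 0.10 without Ifnar1 +/- library 4. Foxo1 averaged 15.9 ± 10.03 CPM and 16.5 ± 12.8 CPM, a log2 fold change of 0.05 with an SE of 0.62, whose sign depended on which library was left out. The most tightly bounded factor was Ikzf1, at 144 ± 48.7 CPM and 159 ± 52.8 CPM, with a log2 fold change of 0.14, an SE of 0.30 and a 95% interval from -0.51 to 0.80.

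Ikzf3 had the largest fold change of the 9. It averaged 5.81 ± 5.77 CPM in the Ifnar1 +/- and 26.7 ± 29.9 CPM in Ifnar1 -/- libraries, a log2 fold change of 2.20 with an SE of 1.25 and a 95% interval from -0.56 to 4.95. Its unadjusted p was 0.107 and its adjusted p in edgeR was 0.9998. The mean rested on Ifnar1 -/- libraries 1 and 2, and the log2 fold change was 1.45 without the first and 1.87 without the second. Ifnar1 -/- library 2 also carried high neutrophil and monocyte RNA, with 24050 CPM of the granule gene Ngp against at most 2149 CPM elsewhere. Of the T-cell list, the CD3 chain genes Cd3d and Cd3g were at 18.4 and 5.99 CPM there and Cd5 at 2.79 CPM. The rest of that list, with Cd3e, Trbc1 and Trbc2, was at most 0.206 CPM. The same library stood apart by sex-linked genes, with 3 counts of Xist and 817 of the Y-linked gene Ddx3y. The other 10 had at least 1157 counts of Xist and at most 22 of Ddx3y. Ifnar1 -/- library 1, with more Ikzf3 than library 2, had 121 CPM of Ngp, 0.247 CPM of Cd3d and 0.216 CPM of Cd3g. It had 2063 counts of Xist and 0 of Ddx3y. The part of the library 2 features in the Ikzf3 level was not tested.

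**Figure D4:**
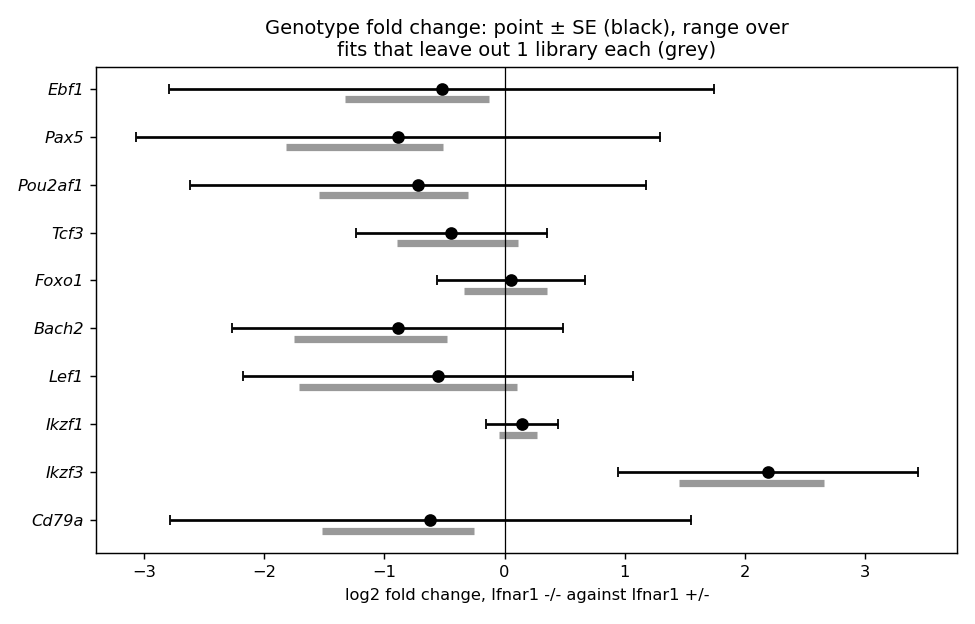
Log2 fold change of each factor and Cd79a between the libraries labelled Ifnar1 -/- and Ifnar1 +/-; black points and bars are the estimate and its SE over 11 libraries, and grey bars are the range over fits that leave out 1 library each. The SE bars of all genes but Ikzf3 cross 0, and the 95% interval of Ikzf3, from -0.56 to 4.95, crosses it too.

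Tcf3 works with the other E proteins and against the Id proteins, which bind E proteins and keep them off DNA. Per kb of exon, Tcf3 made up 61.8% to 71.1% of the summed level of Tcf3, Tcf4 and Tcf12 in the Cd79a-high libraries and 24.2% to 42.4% in the other 6. Tcf12 ran with Tcf3, at 59.5 to 135 CPM in the Cd79a-high libraries and 10.2 to 19.7 CPM elsewhere. Tcf4 did not, at 160.3 to 248 CPM and 147 to 338 CPM. Id3 was at 258 to 535 CPM in the Cd79a-high libraries and at most 11.8 CPM elsewhere. Id2, which favours innate lymphoid and myeloid fates, had the opposite order, at 79.2 to 196 CPM in the Cd79a-high libraries and 298 to 1653 CPM in the others.

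Within the Ikaros family, Ikzf1 made up 79.0% to 87.0% of the summed level per kb in the Cd79a-high libraries and 52.6% to 74.5% in the others. Ikzf2 (Helios), a paralogue found in stem cells and T cells, made up at most 4.50% in the Cd79a-high libraries and 8.13% to 27.8% in the others. Ikzf3 reached 18.2% in Ifnar1 -/- library 1 and 9.47% in Ifnar1 -/- library 2. Of the paralogues of the 9 factors, 10 of 17 were abundant enough to test and 0 were called by genotype. Ebf2 and Pax2 had 0 counts in every library. Ebf3 was at most 0.0806 CPM and Ebf4 at most 0.0974 CPM. Of the EBF family only Ebf1 was abundant, and only in the Cd79a-high libraries.

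**Figure D5:**
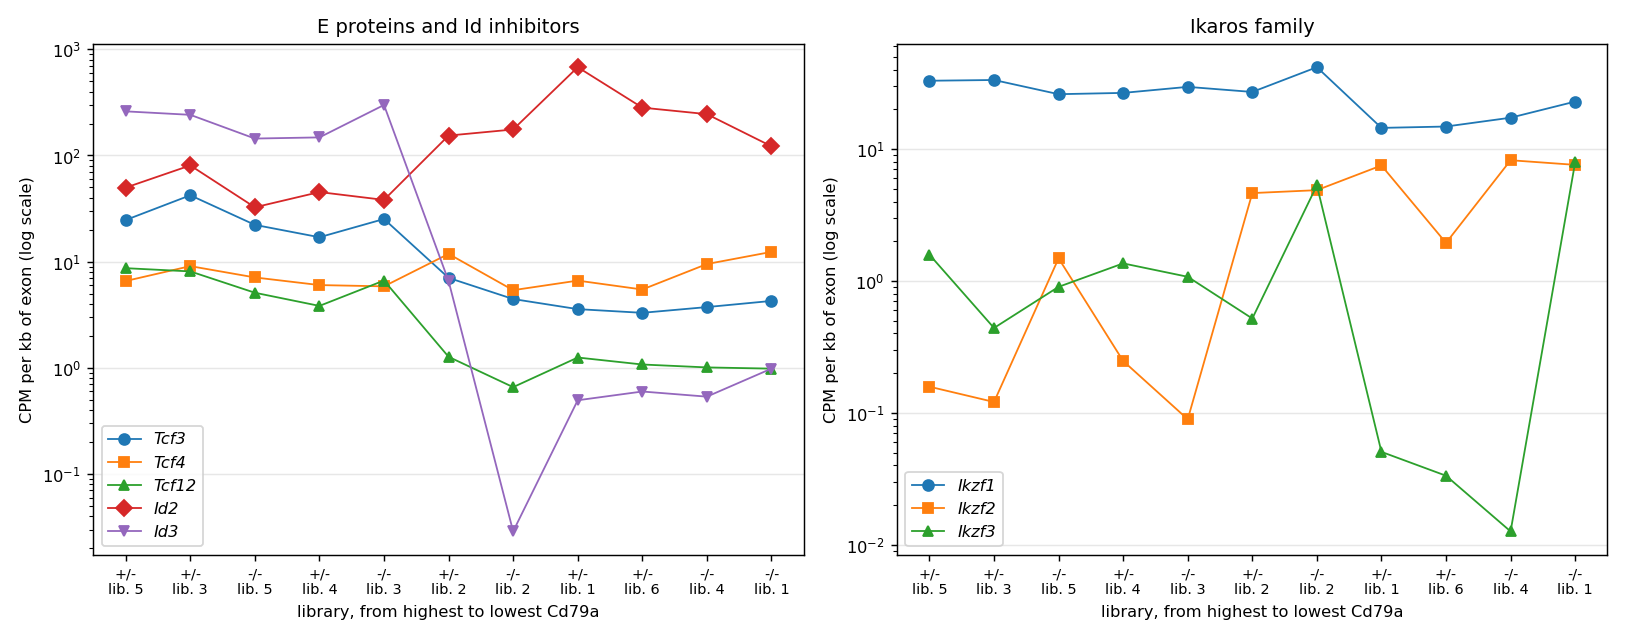
Levels per kb of exon (log scale) of the E proteins and Id inhibitors on the left and of 3 Ikaros family genes on the right, in the 11 libraries ordered from highest to lowest Cd79a. Id3 lies above Id2 in the 5 Cd79a-high libraries and below it in the other 6, and the 5 lowest Ikzf2 values are in the Cd79a-high libraries.

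The factors that cooperate with the 9 were read from a list of 25 genes, of which 24 were tested and 0 passed by genotype. In 18 the fold change was below 0 and in 6 above, with a median of -0.22, while 51.7% of all genes tested were below 0. For 12 of the 24 the 5 highest values were in the Cd79a-high libraries, against 12.1% of all genes tested. Genes that share that split do not have independent signs. Among them, Ets1 was at 303 to 540.3 CPM there and 33.6 to 195 CPM elsewhere, and the interferon regulatory factor gene Irf8 was at 155 to 263 CPM and at most 7.37 CPM. Spib, an ETS factor of B cells, was at 170.0 to 333 CPM in the Cd79a-high libraries and at most 3.14 CPM in the others. Nfkb1, an NF-kB subunit gene, had the opposite order, with its 5 lowest values in the Cd79a-high libraries, at 60.6 to 124 CPM against 240 to 411 CPM elsewhere. Spi1 (PU.1), which serves both B and myeloid fates, reached 508 CPM in Ifnar1 -/- library 2 and was at 26.6 to 89.5 CPM in the other 10.

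Of 24 known targets of Ebf1, Tcf3 or Pax5, 22 were tested and 0 passed by genotype. For 13 of the 22 the 5 highest values were in the Cd79a-high libraries, against 12.1% of all genes tested. Cd79a is itself among those 13, which was fixed in advance because the libraries were picked by its level. The surrogate light chain gene Igll1 was at 1057 to 2823 CPM there and at most 15.5 CPM elsewhere. Vpreb3 was at 949 to 1465 CPM there and at most 11.4 CPM elsewhere. The B-cell kinase gene Btk did not separate the libraries, at 161 to 175 CPM and 132 to 290 CPM. The median log2 fold change of the list was -0.36. It ran from -1.39 without Ifnar1 -/- library 5 to -0.03 without Ifnar1 +/- library 4. It was at -3.58 with voom, -1.39 with the replicate block and 0.30 with Cd79a as a covariate. In that last fit Cd79a was still on the list, so its own value entered the median.

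Genes that Pax5 is known to repress, and factors that oppose the B programme, were read the same way. Of 14 repressed genes 12 were tested, 0 passed by genotype, and 3 (Ccl3, Ccr2 and Cd33) had their 5 lowest values in the Cd79a-high libraries. On the same list 0 genes had their 5 highest values there. Sdc1 nevertheless leaned that way, at 1.30 CPM in Ifnar1 +/- library 3, up to 53.2 CPM in the other Cd79a-high libraries and at most 1.66 CPM elsewhere. Flt3, itself a gene that Pax5 represses, was at 72.9 to 119 CPM in the Cd79a-high libraries and 91.5 to 233 CPM in the others. Of 18 opposing factors 14 were tested and 0 passed, and Id1, Id2, Gata1, Gata2 and Gfi1b had their 5 lowest values in the Cd79a-high libraries. Id3, on the same list, had its 5 highest values there. The T-cell factor gene Gata3 had the smallest p of that list, at 5.66 ± 7.89 CPM (SD, n = 6) and 0.552 ± 0.814 CPM (SD, n = 5), with an unadjusted p of 0.0404 and an adjusted p of 0.9998 in edgeR.

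For each factor the genes with the most similar profile were taken as those with the smallest root mean squared difference of centred log2 CPM over the 11 libraries, among 11743 genes. For Ebf1 these included Pax5 at 1.02 and Vpreb3 at 1.03. For Pax5 they were Dlg2 at 0.51, Chst3 at 0.52 and Galnt14 at 0.55. Pou2af1 was nearest to Mmp11 at 0.83, Id3 at 0.86 and Sorcs2 at 0.90, and Bach2 to Ehd2 at 0.62, Dclk2 at 0.69 and Tmem121 at 0.71.

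The distance grows with a gene's own SD, so it is not compared between factors without that SD. Tcf3 was nearest to Smarca4 at 0.31, Tedc1 at 0.34 and H2afy at 0.36. Foxo1 was nearest to Rad51b at 0.25, Apex1 at 0.28 and Dpysl2 at 0.31. Ikzf1 was nearest to Glyr1 at 0.17, Cntrl at 0.18 and Spidr at 0.18. The nearest gene was Ttll11 at 1.18 for Lef1 and Pik3r6 at 1.42 for Ikzf3. Divided by the SD of the factor, the distance to the nearest gene was 0.10 for Pax5, 0.19 for Pou2af1, 0.21 for Bach2, 0.22 for Tcf3, 0.23 for Foxo1, 0.34 for Lef1, 0.35 for Ikzf1 and 0.51 for Ikzf3.

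Depth was similar across the set, with 25583642 to 38728143 estimated counts per library and 10 or more counts in 13265 to 14730 genes. The Ifnar1 count over the whole gene did not separate the labels, at 60.999 ± 16.9 CPM (SD, n = 6) in libraries labelled Ifnar1 +/- and a log2 fold change of 0.18 with an SE of 0.34. Where the allele was disrupted is not stated in the sources used here, so this count does not check the label. Ifnar1 +/- library 6 had 11.8% globin counts against 0.0956% to 1.42% in the others. Summed neutrophil and monocyte markers (13 genes) ran from 223 to 5748 CPM in the Ifnar1 +/- and from 9.07 to 32815 CPM in the Ifnar1 -/- libraries, and summed T-cell markers (12 genes) from 2.30 to 15.0 CPM and from 8.64 to 27.7 CPM. Their part in the levels of the factors was not tested. The plasmacytoid dendritic gene Siglech was at 0 in every library, but 3 of the 6 tested genes of that list (Spib, Irf8 and Cox6a2) had their 5 highest values in the Cd79a-high libraries. The mature B-cell gene Fcer2a was at most 0.314 CPM. Yet 5 of the 6 tested genes of the mature B-cell list had their 5 highest values in the Cd79a-high libraries. Among them Cd22 was at 78.8 to 164 CPM there, Ighd at 17.9 to 79.4 CPM and Ms4a1 at 2.15 to 151.5 CPM. Over all genes tested, 12.1% had their 5 highest values in these libraries. The T-cell gene Cd3e was at most 0.357 CPM. Ifnar1 -/- library 5 held the B factors together with 73.1 CPM of Gata2, a stem and megakaryocyte factor.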

How the data were processed

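The data are bulk RNA sequencing of 11 mouse AML libraries. A Qiagen micro kit for extraction and a Clontech library kit are named in the labels' protocols. Of the software, bcl2fastq and DRAGEN appear in the submitters' processing notes, with no version. The build and annotation used for counting were not given in the sources used. Estimated counts per gene were deposited by the authors, with library totals that differ and so no common scaling, and 10.0% to 11.3% of values per library were not whole. From 55774 rows, 287 identical copies were dropped.

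Rounded counts entered edgeR 4.0.16 under R 4.3.3 (filterByExpr, TMM, robust quasi-likelihood F-test, two-sided, Benjamini-Hochberg over 14521 genes, threshold 0.05). The test was also run on simulated data, and its outcome there is not reported here. Log2 CPM used a prior count of 2. Fold changes are Ifnar1 -/- against +/-. Alternatives used DESeq2 1.42.0, limma 3.58.1 voom, other scaling, filters and depth, a Cd79a covariate, a replicate block and leaving out each library. Ratios to Cd79a needed at least 50 Cd79a counts, a minimum set with the data in view. Promoters come from RefSeq (GRCm38.p6), and exon lengths from an annotation on GRCm38.

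The members and the gene lists were chosen with earlier results of these data known. Named genes were the members, Cd79a, Ifnar1, the 3 nearest genes of each member, the 4 most abundant and the 2 with the smallest p of each list, and defining markers; genes outside this rule were chosen after their values were seen. One gene that the rule names is not reported here. The labels do not say whether each library is a separate mouse, and a p-value therefore reflects only how these libraries scatter. How much of that scatter is technical is not known.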

Additional observations from a re-analysis of the deposited data

How the results depend on the processing

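The number of genes called by genotype was 0, and it was 3 with DESeq2 and 0 with limma voom and every other setting run; none of the 9 factors passed in any of them. Ebf1, Pax5 and Ikzf3 kept their direction in all 23 alternatives each, but not their size. Ebf1 (-0.52) was at -6.56 with voom and at -1.33 to -0.13 leaving out 1 library, and Pax5 (-0.89) at -5.49 with voom and at -1.82 to -0.51. Ikzf3 ranged from 0.27 with voom to 2.95 with Cd79a as a covariate. With voom the log2 fold change became -0.24 for Ikzf1 and -0.36 for Foxo1, and with Cd79a as a covariate 0.16 for Tcf3, 1.32 for Pou2af1 and 0.013 for Bach2; the cause was not tested. Leaving out 1 library at a time gave -0.34 to 0.35 for Foxo1, -0.90 to 0.11 for Tcf3, -1.71 to 0.10 for Lef1 and -0.048 to 0.27 for Ikzf1. The median of the genes that Pax5 represses was 0.43, and -0.38 without Ifnar1 -/- library 2.

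Nothing in the labels says that the replicate numbers pair the libraries. Over the 2000 most variable genes, deviations of same-numbered libraries correlated at -0.59 to 0.63, and no library matched best with its own number. Large differences between leukaemias can hide a pairing in such genes, so this check cannot show that the numbers are unpaired. With the replicate block, on the 5 shared numbers, 0 genes were called. Foxo1 was at -0.36, Ebf1 at -4.04, Pax5 at -2.46, Lef1 at -2.54 and Bach2 at -2.28, the last with an unadjusted p of 0.0276 and an adjusted p of 0.999 in edgeR. Without the block on the same libraries these were -0.11, -0.78, -1.15, -0.80 and -1.14. Without Ifnar1 -/- library 4, Ikzf3 had an unadjusted p of 0.0378 in edgeR, at 2.52. Depth limits Ebf1, Pax5 and Lef1 in the lowest libraries, where 0 to 3 counts carry the value. The SD within each genotype limits every fold change.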

Other observations

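The recombination genes split the 5 Cd79a-high libraries further. These genes were chosen after their values were seen. Rag1, a subunit of the V(D)J recombinase, was at 1.30 CPM in Ifnar1 +/- library 3 and at 8.50 to 18.9 CPM in the other 4. Rag2, its partner, was at 6.37 CPM in Ifnar1 +/- library 3 and at 16.6 to 38.2 CPM in the other 4. That library also had the lowest Lef1 of the 5, at 4.65 CPM. Dntt, which adds untemplated bases at V(D)J joints, was at 175 CPM in Ifnar1 -/- library 5, 46.4 CPM in Ifnar1 +/- library 4, 7.84 CPM in Ifnar1 +/- library 5 and at most 0.324 CPM in the remaining 2. Ms4a1 (CD20), a gene of more mature B cells, ranged from 2.15 to 151.5 CPM in these 5 libraries.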
